A study of Mus musculus with 22 samples.

Results

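Neuronal RNA-binding splicing factors were examined in cultured mouse cerebellar granule cells through the 10 genes Rbfox1, Rbfox2, Rbfox3, Elavl2, Elavl3, Elavl4, Nova1, Nova2, Ptbp1 and Ptbp2. Every probe set annotated to 1 of these symbols was taken, which gave 31 of the 45101 probe sets on the array. The gene names set the membership and no measured value did, and each probe set is reported, 28 of them bright (a mean over all arrays of at least 6.44, the median of all probe sets on the log2 scale) and 3 dim. The probe sets measure transcript level and not splicing, and the sources used here do not place them along their transcripts.

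RNA of granule cells was hybridised to 22 Affymetrix mouse genome arrays, the cells taken from the cerebellum of mouse pups at postnatal day 7, labelled as strain C56Bl6/J and as biological replicates throughout. The study's methods name the N substrain for the pups, where the label ends in J. Chd7 mutant neurons (n = 4) were set against wild type neurons (n = 4), neither of which was given an agent. Per the study's methods the mutant pups were Atoh1-Cre::Chd7 f/f and the controls Chd7 f/f, so that both carried the floxed allele, Cre was driven by Atoh1, a gene of the granule lineage, and the sex of the pups was not discriminated. The study describes Chd7 protein as still present in the posterior lobe of such mutants. Neurons treated for 12 h with 10 µM ICRF-193, which inhibits the catalytic cycle of topoisomerase II, were compared with neurons treated with its solvent DMSO (n = 4 each). Cultures labelled Smo2 (n = 3) were compared with their labelled controls, here called cultures without Smo2 (n = 3). No genotype is labelled for these last 4 groups, and the study describes the ICRF-193 and DMSO neurons as wild type. What Smo2 is stays undefined in the labels, and the study's methods name SAG, a Smoothened agonist that turns on hedgehog signalling, for cultures of this kind. Nothing in the labels says that the replicates came from separate litters, so p-values measure the spread between these samples.

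In both comparisons that use 4 arrays a group, replicates 1 and 2 resembled each other across the 2 conditions, as did replicates 3 and 4, and no label explains these sets. Of the Chd7 probe sets, 1437745_at read 9.47 ± 0.54 in mutant and 11.50 ± 0.23 in control neurons (log2 signal, mean ± SD, n = 4 each, limma adjusted p = 0.018), and 1448026_at read 11.65 ± 0.25 in mutant and 11.89 ± 0.13 in control neurons (limma adjusted p = 0.454). It is not given whether either lies in the deleted part of the gene. Both Chd7 probe sets were also lower in the other comparisons. Under ICRF-193, 1448026_at differed by -1.35 and 1437745_at by -1.28 (limma adjusted p = 0.00524 and 0.0255), and with Smo2 by -0.67 and -0.72 (limma adjusted p = 0.000584 and 0.000223). The granule lineage marker genes had summed linear signals of 75010 to 80480 in mutant and 86330 to 88700 in control neurons, with 1 of 8 called lower and 0 higher. Summed markers were higher in mutant than in control neurons without overlap for the oligodendrocyte lineage (13730 to 17450 against 4470 to 10770), fibroblasts and pericytes (4168 to 6992 against 2027 to 3414) and muscle (638.4 to 1505 against 182.1 to 275.5), with 0 of 5, 0 of 5 and 2 of 5 of their genes called higher. Those of astrocytes overlapped (6151 to 18000 against 3837 to 8713, 1 of 6 called higher). Under ICRF-193 the GABAergic interneuron markers summed to 3406 to 4099, against 4718 to 5437 with DMSO, with 0 of 3 called. The mean of 3 Y-linked genes was 4 to 6.95 (log2) on mutant and 8.38 to 9.03 on control arrays. In a bulk sample fewer cells of a type and less RNA per cell cannot be told apart, and the part of cell makeup or sex in the results was not tested.

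These proteins set the splicing pattern of neurons. Rbfox proteins bind the word GCAUG in introns beside regulated exons, Nova proteins bind clusters of the word YCAY, and the neuronal Elavl proteins, also called Hu proteins, bind AU-rich RNA and also stabilise messenger RNAs. Ptbp1 acts in the opposite sense: it binds pyrimidine-rich RNA, keeps many neuronal exons out of transcripts in dividing progenitors, and blocks productive splicing of its own paralogue Ptbp2. When neurons are born Ptbp1 declines and Ptbp2 is made, and Ptbp2 in turn declines as neurons mature. Rbfox3 is the antigen known as NeuN, by which postmitotic neurons are commonly stained.

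Of the 31 probe sets, 5 were lower and 0 higher in Chd7 mutant than in control neurons (limma on log2 signal, Benjamini-Hochberg adjusted p under 0.05 over all 45101 probe sets), where 1.3% of all probe sets were called lower and 1.47% higher. With ICRF-193, 7 were lower and 0 higher than with DMSO, where 1.16% of all were called lower and 0.787% higher. In Smo2 cultures 21 were lower and 4 higher than without Smo2, where 16.1% of all were called lower and 13.9% higher. The calls in the mutant lay in Rbfox1 and Nova1, those under ICRF-193 in Rbfox1, Rbfox3 and Nova1, and those with Smo2 in each of the 10 genes. Both Rbfox1 and Nova1 stand in a list of genes lower in the mutant and under ICRF-193 that the study drew up from these arrays, so their direction here is not independent of that choice. At an unadjusted limma p under 0.05 the numbers in either direction were 10 of 31 in the mutant, 9 under ICRF-193 and 27 with Smo2, where 16%, 12% and 38% of all probe sets had such a p. The groups did not overlap in 8 probe sets lower and 1 higher in the mutant (5.33% and 5.32% of all probe sets), in 8 lower and 0 higher under ICRF-193 (3.63% and 3.99%), and in 22 lower and 6 higher with Smo2 (22.5% and 18.7%). The median difference over the member probe sets was -0.12 in the mutant, -0.10 under ICRF-193 and -0.57 with Smo2, against medians over all probe sets of 0.00, 0.00 and -0.01.

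**Figure D1:**
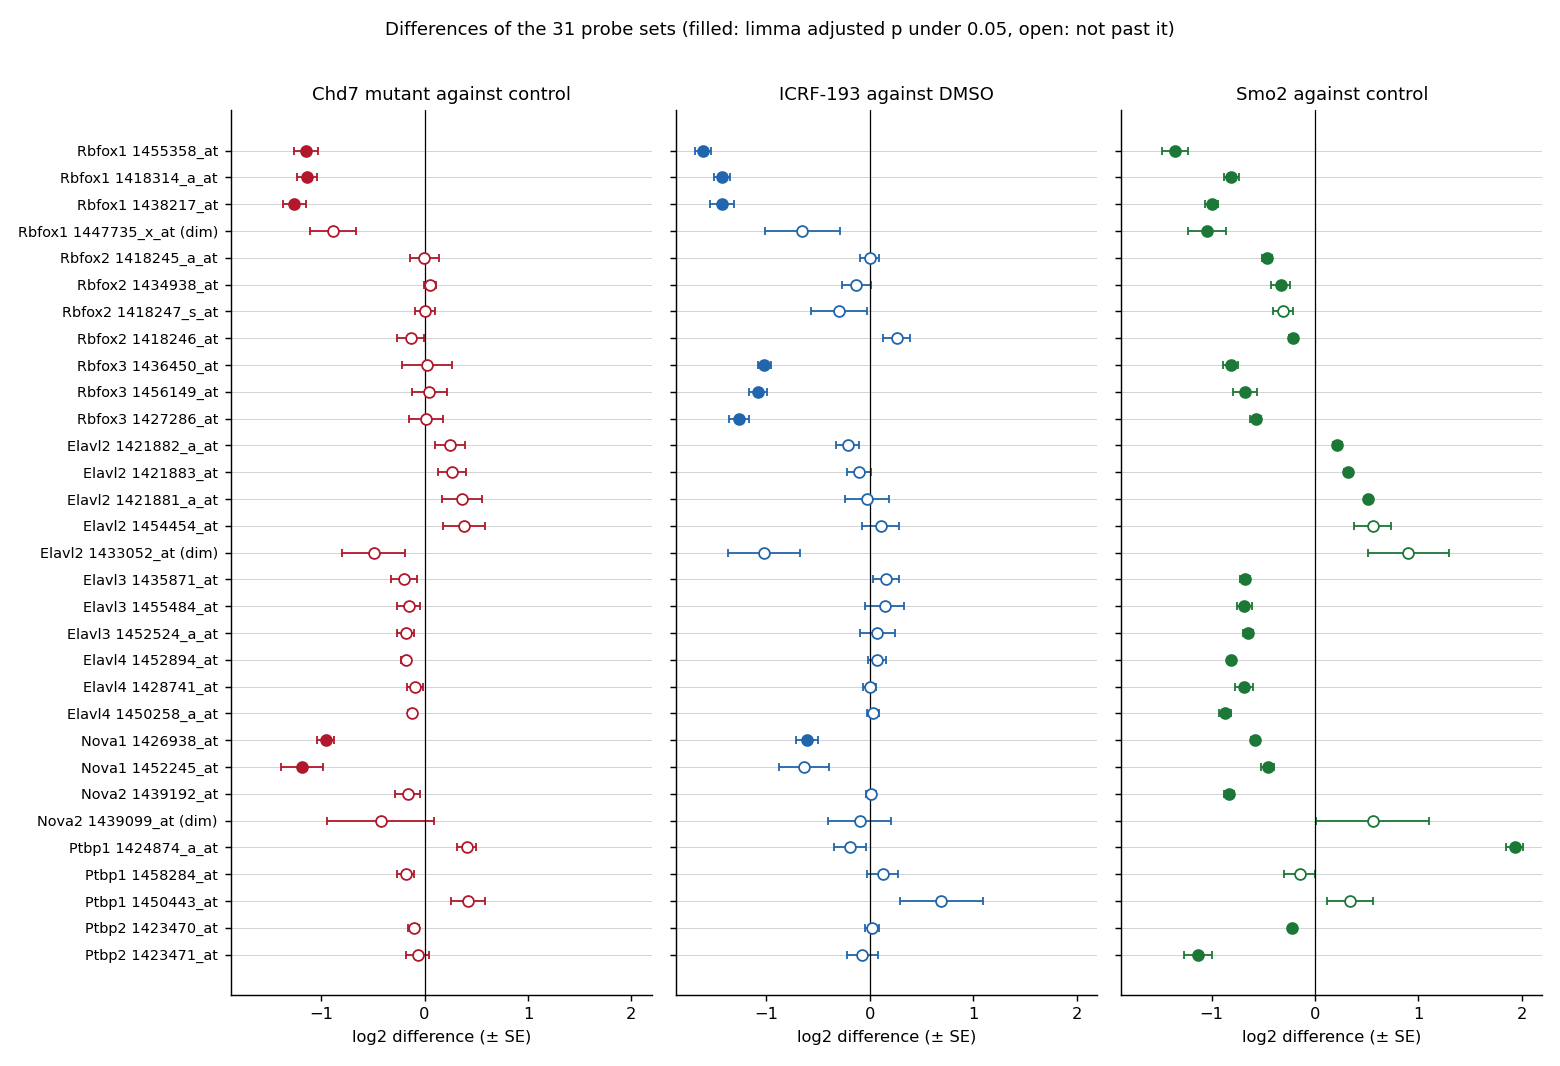
Log2 difference of each of the 31 probe sets (rows) in the 3 comparisons (panels), mutant, ICRF-193 or Smo2 minus its control, with the standard error as bars. Filled points passed limma at an adjusted p under 0.05 and open points did not. Rbfox1 and Nova1 were called lower in every panel in at least 1 probe set, Rbfox3 in the ICRF-193 and Smo2 panels, and a single Ptbp1 probe set stood at 1.93 with Smo2.

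Promoter sequence is given for 4 members whose transcripts stand out in 1 or more comparisons, Rbfox1, Nova1, Rbfox3 and Ptbp1. The promoter set used here, on RefSeq starts (GRCm38.p6), held entries for 9 of the 10 members and none for Rbfox2. Rbfox1 has 2 entries, 1185 kb apart on chromosome 16, and which of them gives rise to the measured transcripts is not resolved by the arrays. The 250 bases before each start site are printed 5′ to 3′ on the strand of the gene, from chr16:5884543-5884792 (plus strand, Rbfox1 upstream start), chr16:7069585-7069834 (plus strand, Rbfox1 downstream start), chr11:118761042-118761291 (minus strand, Rbfox3), chr12:46818768-46819017 (minus strand, Nova1) and chr10:79854182-79854431 (plus strand, Ptbp1).
Rbfox1 upstream start: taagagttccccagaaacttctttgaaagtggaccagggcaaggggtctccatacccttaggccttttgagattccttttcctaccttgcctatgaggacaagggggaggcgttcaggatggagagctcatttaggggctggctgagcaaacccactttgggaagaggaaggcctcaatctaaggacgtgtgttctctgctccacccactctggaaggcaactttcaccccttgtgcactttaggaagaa
Rbfox1 downstream start: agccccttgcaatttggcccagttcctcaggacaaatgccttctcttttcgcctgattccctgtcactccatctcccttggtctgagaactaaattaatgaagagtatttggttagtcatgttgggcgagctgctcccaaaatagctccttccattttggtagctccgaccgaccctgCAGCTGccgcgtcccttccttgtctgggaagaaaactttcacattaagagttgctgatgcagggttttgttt
Rbfox3: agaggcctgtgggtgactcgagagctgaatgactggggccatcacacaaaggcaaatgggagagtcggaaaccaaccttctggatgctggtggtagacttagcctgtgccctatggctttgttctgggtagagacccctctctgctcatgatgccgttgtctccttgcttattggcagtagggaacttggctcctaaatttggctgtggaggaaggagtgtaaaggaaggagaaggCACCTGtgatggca
Nova1: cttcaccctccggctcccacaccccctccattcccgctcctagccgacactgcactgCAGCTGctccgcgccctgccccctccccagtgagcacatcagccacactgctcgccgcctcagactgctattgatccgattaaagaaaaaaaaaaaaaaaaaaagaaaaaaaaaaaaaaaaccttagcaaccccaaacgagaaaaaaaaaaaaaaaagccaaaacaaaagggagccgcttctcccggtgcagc
Ptbp1: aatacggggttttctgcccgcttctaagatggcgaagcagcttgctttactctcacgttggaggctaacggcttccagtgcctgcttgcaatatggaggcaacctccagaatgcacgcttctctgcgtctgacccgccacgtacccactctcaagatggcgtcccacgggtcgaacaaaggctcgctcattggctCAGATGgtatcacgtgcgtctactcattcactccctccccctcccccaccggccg
Capitals mark the E-box words CAGNTG or CANCTG, which are each other's reverse complement and so cover both strands, with a palindrome counted once. E-boxes are the words that basic helix-loop-helix factors such as Atoh1 bind. The upstream Rbfox1 window had 0 matches and the others shown had 1 each, 8 of the 18 windows of the members had at least 1, and 44.8% of 32851 promoter windows of this length had one. The windows differed in CG dinucleotides, with 2 and 6 in those of Rbfox1, 3 in Rbfox3, 11 in Nova1 and 17 in Ptbp1, where the median of all windows was 6.

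Rbfox1 was the member with the steepest fall in the mutant and under ICRF-193. Its brightest probe set, 1455358_at, read 10.27, 10.12, 10.39 and 10.49 (log2 signal) in the 4 mutant samples, against 11.67, 11.57, 11.29 and 11.32 in the 4 control samples. The groups did not overlap, and the mutant mean was lower by 1.15 ± 0.12 (SE, limma adjusted p = 0.00753), which is 45.2% of the control signal. The other bright probe sets gave like values. 1418314_a_at read 10.10 ± 0.08 in mutant and 11.24 ± 0.19 in control neurons (SD, n = 4 each, difference -1.13, limma adjusted p = 0.00488), and 1438217_at read 8.16 ± 0.16 in mutant and 9.42 ± 0.17 in control neurons (difference -1.26, limma adjusted p = 0.00512). The dim probe set 1447735_x_at read 4.81 to 5.76 in mutant and 6.20 to 6.59 in control neurons, also with no overlap, and did not pass (limma adjusted p = 0.105). Replicate numbers are shared between the groups, and with the number as a block only 1418314_a_at passed (adjusted p = 0.0484), while 1455358_at had 0.0751 and 1438217_at 0.0629. With the replicate set as a block (replicates 1 and 2, or 3 and 4) all 3 bright probe sets passed. The limma adjusted p was then 0.00857 in 1455358_at, 0.00296 in 1418314_a_at and 0.00578 in 1438217_at. In 1455358_at the difference was -1.43 between replicates 1 and 2 of each group and -0.87 between replicates 3 and 4.

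Under ICRF-193 the same probe set of Rbfox1, 1455358_at, read 9.32, 9.38, 9.39 and 9.11, against 10.95, 10.94, 10.80 and 10.96 with DMSO. The groups lay far apart, with a difference of -1.61 ± 0.08 (SE, limma adjusted p = 0.000296), which is 32.7% of the DMSO signal. 1418314_a_at differed by -1.43 (limma adjusted p = 0.000435) and 1438217_at by -1.43 (limma adjusted p = 0.00185), and the dim 1447735_x_at, whose groups overlapped, by -0.65 (limma adjusted p = 0.589). All 3 bright probe sets also passed with the replicate block. The fall under ICRF-193 was not shown to differ from that in the mutant: the mutant difference minus the ICRF-193 difference was 0.47 ± 0.14 in 1455358_at, 0.29 ± 0.13 in 1418314_a_at and 0.17 ± 0.17 in 1438217_at (SE, limma adjusted p = 0.151, 0.381 and 0.771, and 0.282, 0.303 and 0.702 with the replicate block).

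With Smo2, Rbfox1 1455358_at read 10.13, 9.67 and 9.91, against 11.28, 11.27 and 11.21 without it. The difference was -1.35 ± 0.13 (SE, limma adjusted p = 0.00178). The other 3 Rbfox1 probe sets, the dim one included, were lower by 0.81 to 1.04 and all passed, the dim one not when replicate 3 without Smo2 was left out (adjusted p = 0.0517). Over the 6 groups the mean of 1455358_at ran, low to high, 9.30 with ICRF-193, 9.90 with Smo2, 10.32 in the mutant, 10.91 with DMSO, 11.25 without Smo2 and 11.46 in the Chd7 control, and among neighbours in this order only the Smo2 and mutant arrays overlapped.

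Rbfox3, the NeuN gene, responded to ICRF-193 and was not called in the mutant. 1436450_at read 12.54, 12.63, 13.39 and 13.39 in mutant neurons, against 12.67, 12.95, 13.08 and 13.15 in control neurons. The mutant samples fell into a lower and a higher pair around the control values, and the means differed by 0.03 ± 0.24 (SE, limma adjusted p = 1). Between replicates 1 and 2 of each group the difference was -0.23 and between replicates 3 and 4 it was 0.28. The other Rbfox3 probe sets split in the same way and differed by 0.05 in 1456149_at and 0.01 in 1427286_at (limma adjusted p = 0.966 and 1).

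Under ICRF-193, Rbfox3 1436450_at read 11.95, 11.87, 11.97 and 12.05, against 12.98, 12.89, 12.93 and 13.11 with DMSO. The groups did not overlap, and the difference was -1.02 ± 0.06 (SE, limma adjusted p = 0.000793), 49.4% of the DMSO signal. 1456149_at differed by -1.08 (limma adjusted p = 0.00185) and 1427286_at by -1.26 (limma adjusted p = 0.00145), and all 3 passed with the replicate block. The difference between the 2 responses was itself tested over the 16 arrays of both comparisons. It passed in 1427286_at (1.28 ± 0.19, SE, limma adjusted p = 0.0039) and 1456149_at (1.13 ± 0.19, limma adjusted p = 0.00853) and missed the threshold in 1436450_at (1.04 ± 0.26, limma adjusted p = 0.06). These were the only 2 of the 31 probe sets past that test, in which 1.85% of all probe sets were called. With the replicate number as a block 5 of the 31 passed it, where 2.49% of all probe sets were called: the 3 of Rbfox3 (adjusted p 0.00954 to 0.0404) and Elavl2 1421882_a_at and 1421883_at (0.0214 and 0.0409), whose differences were 0.25 and 0.26 in the mutant and -0.21 and -0.11 under ICRF-193.

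In Smo2 cultures Rbfox3 1436450_at read 13.10, 13.32 and 13.14, against 14.03, 13.96 and 14.02 without Smo2. It was lower by 0.82 ± 0.07 (SE, limma adjusted p = 0.00142) with no overlap. The other 2 probe sets were lower by 0.68 and 0.57 and passed, though 1456149_at did not with the replicate block (adjusted p = 0.066) or without Smo2 replicate 1 (adjusted p = 0.051).

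Rbfox2, which is also made outside the nervous system, was called neither in the mutant nor under ICRF-193. Its brightest probe set, 1418245_a_at, read 10.58, 10.53, 10.89 and 10.84 in mutant and 10.46, 10.57, 10.92 and 10.90 in control neurons, and 11.04 ± 0.13 with both ICRF-193 and DMSO. The groups overlapped throughout, and none of the 4 Rbfox2 probe sets passed in either comparison (differences -0.30 to 0.26, limma adjusted p 0.539 or above). With Smo2 1418245_a_at read 9.94, 9.99 and 10.03, against 10.38, 10.47 and 10.51 without, a difference of -0.47 ± 0.05 (SE, limma adjusted p = 0.00251). The 3 others were lower by 0.22 to 0.33, 2 of which passed (1434938_at at an adjusted p of 0.0468 and 1418246_at at 0.0177) and 1 of which did not (1418247_s_at, 0.0744). The call of 1434938_at did not hold when a single array was left out in 5 of 6 cases or with the replicate block (adjusted p = 0.151), and that of 1418246_at did not in 4 of 6 (adjusted p up to 0.0601), while 1418247_s_at passed with the block (adjusted p = 0.044). Under median centring 1434938_at and 1418246_at both lost their call (limma adjusted p = 0.193 and 0.1). In a single fit over all arrays 1418246_at lost it too (0.293).

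**Figure D2:**
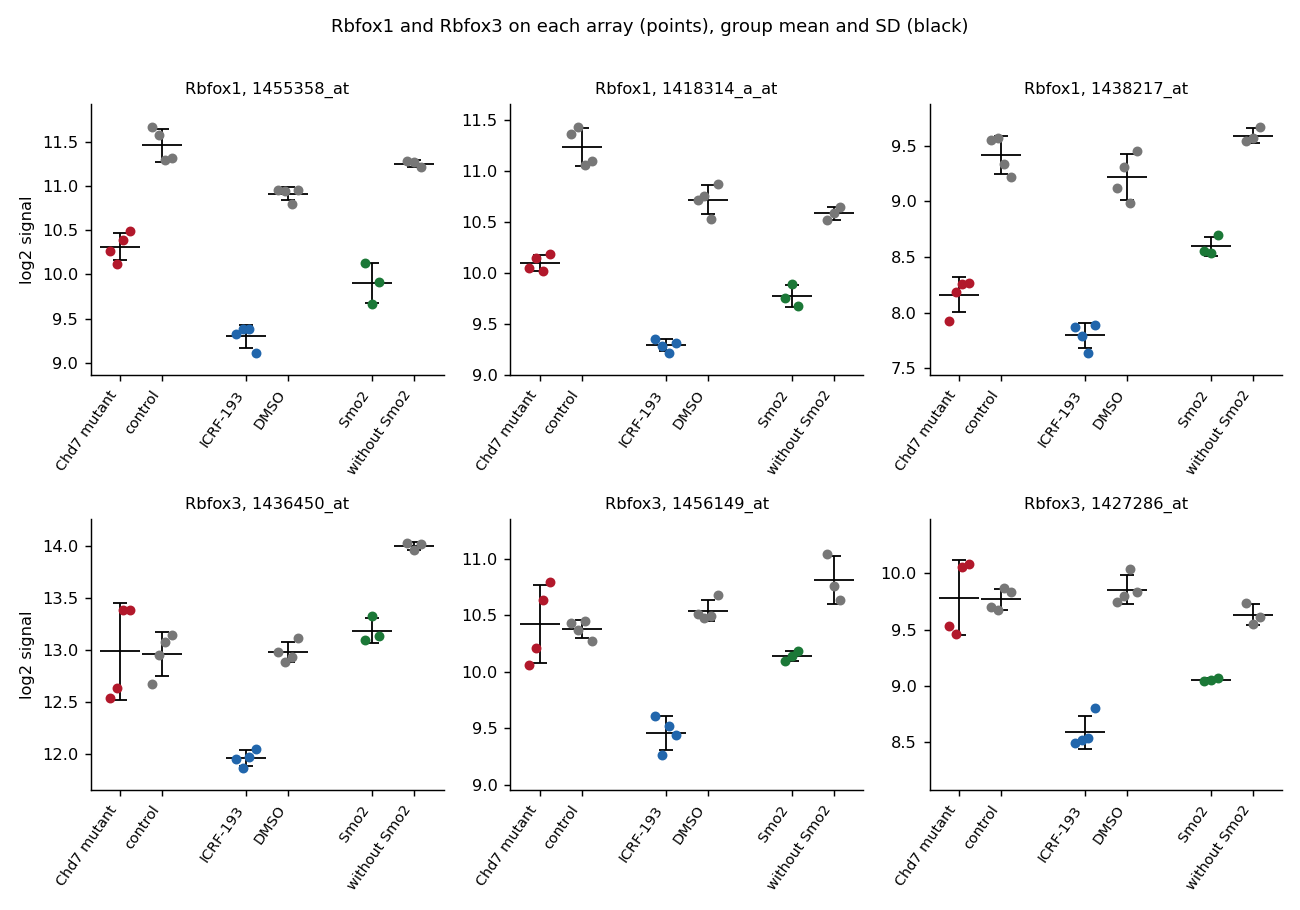
Log2 signal of the 3 bright Rbfox1 probe sets (top) and the 3 Rbfox3 probe sets (bottom) on each array (points) of the 6 groups, with the group mean and SD in black. Each axis has its own range and does not start at 0. Rbfox1 lay lower in the mutant, ICRF-193 and Smo2 groups than in their controls, while in Rbfox3 the mutant arrays straddled the control arrays.

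Nova1, an RNA-binding protein of neurons that was first found as an autoantigen in a paraneoplastic movement disorder, was lower in the mutant in both of its probe sets. 1426938_at read 10.95, 10.76, 11.03 and 11.06 in mutant neurons, against 11.87, 11.78, 11.99 and 12.00 in control neurons. The groups did not overlap and the difference was -0.96 ± 0.08 (SE, limma adjusted p = 0.00484), 51.5% of the control signal. It also passed with the replicate block (adjusted p = 0.0389), and it was nearly equal in both sets of replicates, at -0.97 in replicates 1 and 2 and -0.95 in replicates 3 and 4. The dimmer 1452245_at read 6.43 ± 0.39 in mutant and 7.62 ± 0.16 in control neurons (SD, n = 4 each, difference -1.18, limma adjusted p = 0.0338), but its call did not hold with the block (adjusted p = 0.115) or in 7 of 8 fits with 1 array left out (adjusted p up to 0.091). With the replicate set as a block 1452245_at passed (limma adjusted p = 0.0265).

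Under ICRF-193, Nova1 1426938_at read 11.25, 11.22, 11.58 and 11.48, against 11.95, 11.85, 12.19 and 11.96 with DMSO. The groups did not overlap, and the difference of -0.61 ± 0.11 passed narrowly (SE, limma adjusted p = 0.0485, and 0.044 with the replicate block). Leaving out any 1 of the 8 arrays ended the call (adjusted p 0.0561 to 0.122). 1452245_at overlapped between the groups and did not pass (difference -0.64, limma adjusted p = 0.36). The mutant difference minus the ICRF-193 difference was -0.35 ± 0.14 in 1426938_at (SE, limma adjusted p = 0.319, and 0.0541 with the replicate block). With Smo2, 1426938_at read 11.24, 11.33 and 11.32, against 11.87, 11.90 and 11.87 without it, a difference of -0.58 ± 0.04 (SE, limma adjusted p = 0.000585) with no overlap. 1452245_at differed by -0.46 with Smo2 (limma adjusted p = 0.00576) and did not pass with the replicate block (limma adjusted p = 0.0556). The level of 1426938_at over the groups was lowest in the mutant, at 10.95, followed by 11.30 with Smo2 and 11.38 with ICRF-193, whose arrays overlapped, and the 3 control groups overlapped, with means of 11.88 to 11.99.

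Nova2, the paralogue that predominates in the neocortex, gave a different pattern. 1439192_at read 10.66, 10.73, 11.08 and 10.96 in mutant and 10.88, 10.90, 11.17 and 11.13 in control neurons, with overlap (difference -0.16, limma adjusted p = 0.596). It read 11.09 ± 0.05 with ICRF-193 and 11.09 ± 0.06 with DMSO (SD, n = 4 each, difference 0.01, limma adjusted p = 1). With Smo2 it read 9.35, 9.49 and 9.37, against 10.27, 10.25 and 10.20 without it, and was lower by 0.83 ± 0.05 (SE, limma adjusted p = 0.00048). The dim 1439099_at was at the floor of 4 on 2 or 3 arrays of every group and was called in no comparison.

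Ptbp1, the progenitor repressor of neuronal exons, showed the largest rise of the 31 probe sets. 1424874_a_at read 12.83, 12.89 and 12.94 with Smo2, against 11.07, 10.81 and 10.98 without it. The difference was 1.93 ± 0.08 (SE, limma adjusted p = 0.000216), 3.81 times the signal without Smo2. The other Ptbp1 probe sets disagreed with it in size: 1450443_at read 7.10 ± 0.34 with and 6.76 ± 0.23 without Smo2 (SD, n = 3 each, difference 0.34, limma adjusted p = 0.368) and 1458284_at 8.62 ± 0.18 with and 8.77 ± 0.21 without it (difference -0.15, limma adjusted p = 0.538), with overlap in both. In the Chd7 comparison 1424874_a_at read 10.14, 10.31, 10.54 and 10.44 in mutant neurons, against 9.89, 10.05, 9.88 and 9.98 in control neurons. The groups did not overlap, and the difference of 0.41 ± 0.09 missed the threshold (SE, limma adjusted p = 0.0795). It passed when dim probe sets were left out (adjusted p = 0.0423), when the variance prior was given a trend (adjusted p = 0.0455), or without mutant replicate 1 (adjusted p = 0.0468). It did not pass with the replicate number as a block (limma adjusted p = 0.157) or with the replicate set as a block (0.0567). The dimmer 1450443_at differed by 0.42 and 1458284_at by -0.18 in the mutant, with overlapping groups. With ICRF-193, 1424874_a_at read 9.75 ± 0.13, against 9.94 ± 0.31 with DMSO (SD, n = 4 each, difference -0.19, limma adjusted p = 0.757). The other Ptbp1 probe sets went the other way with ICRF-193, 1450443_at by 0.69 and 1458284_at by 0.13, with overlapping groups (limma adjusted p = 0.608 and 0.826).

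Ptbp2, the neuronal paralogue that Ptbp1 represses, was lower with Smo2 in both probe sets by unequal amounts, the smaller of which changed sign under median centring. 1423471_at read 8.99, 8.80 and 8.78 with Smo2, against 10.07, 9.74 and 10.15 without it. It was lower by 1.13 ± 0.13 (SE, limma adjusted p = 0.00369) with no overlap. The brighter 1423470_at read 12.88 ± 0.03 with Smo2 and 13.11 ± 0.02 without it (SD, n = 3 each, difference -0.22, limma adjusted p = 0.00596), and its sign turned to 0.06 when arrays were centred on their medians in place of quantile normalization (adjusted p = 0.502). With the replicate block 1423470_at did not pass (limma adjusted p = 0.0519). In the mutant the differences of both were -0.10 and -0.07 and under ICRF-193 0.02 and -0.07, with overlapping groups and limma adjusted p-values of 0.416 or above.

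**Figure D3:**
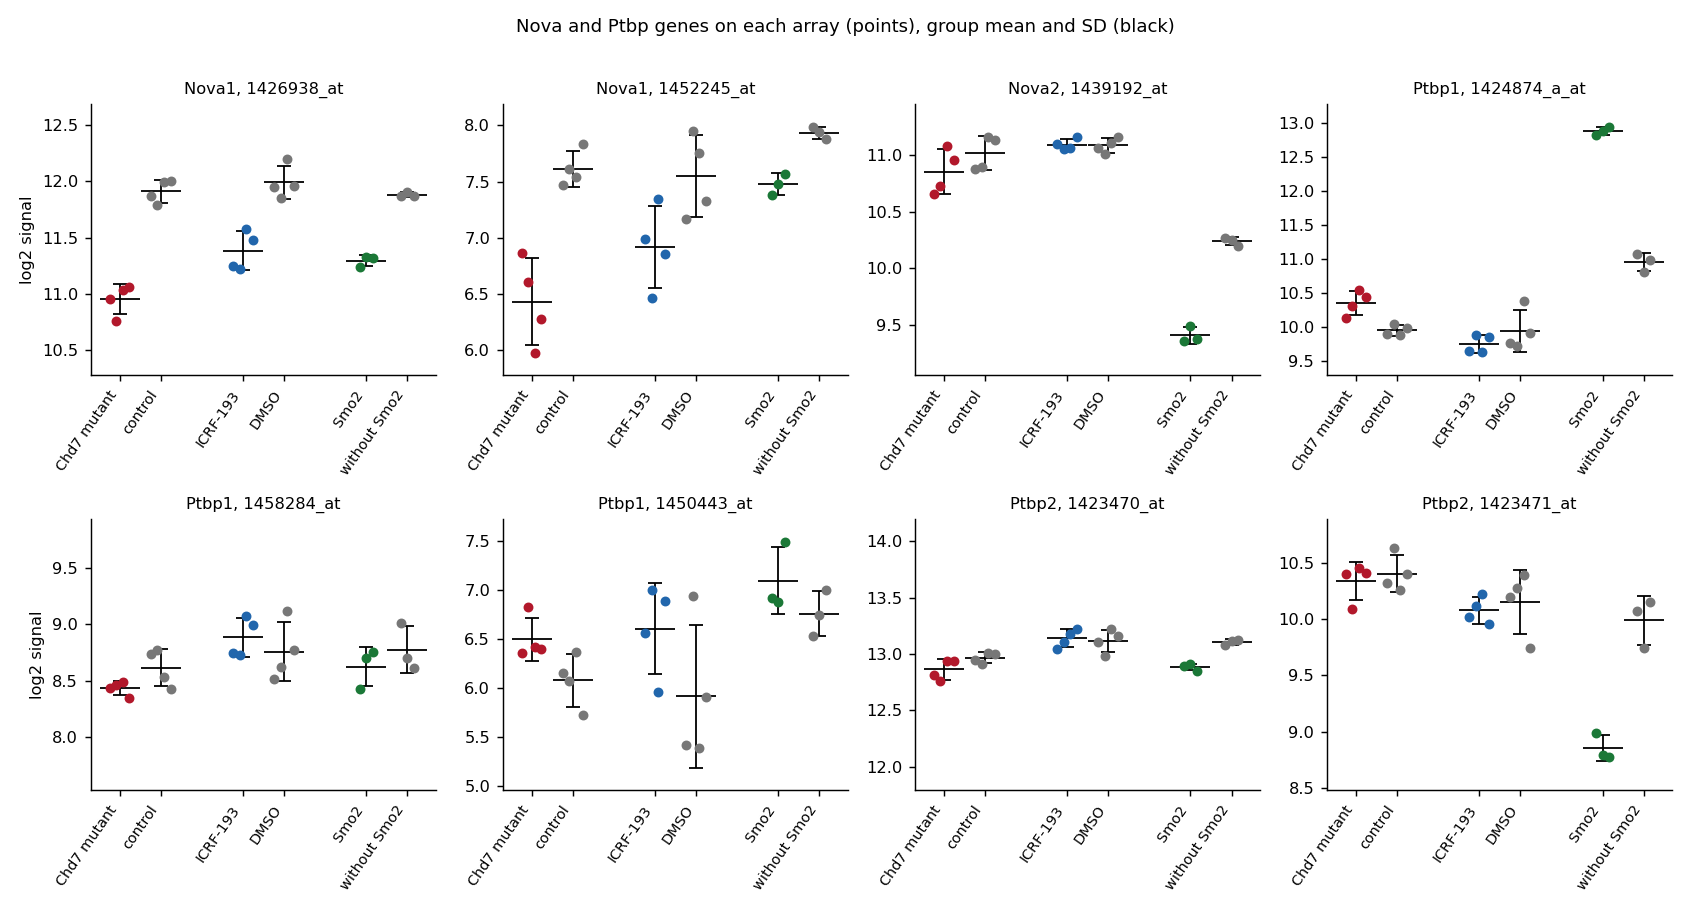
Log2 signal of the bright Nova1, Nova2, Ptbp1 and Ptbp2 probe sets on each array (points) of the 6 groups, with the group mean and SD in black. Each axis has its own range and does not start at 0. Nova1 lay lower in the mutant, ICRF-193 and Smo2 groups than in their controls in 1426938_at, and of the 3 Ptbp1 probe sets only 1424874_a_at stood apart with Smo2, at 12.89 against 10.95.

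The neuronal Elavl genes were not called in the mutant or under ICRF-193 in any of their 11 probe sets, and with Smo2 they moved in both directions. Elavl4 (HuD), which marks differentiating neurons, read 11.80, 11.74 and 11.79 in 1452894_at with Smo2, against 12.60, 12.59 and 12.58 without it. The replicates were tight, and the difference of -0.81 ± 0.03 had the lowest adjusted p of the members with Smo2 (SE, limma adjusted p = 0.00015). 1428741_at and 1450258_a_at were lower by 0.69 and 0.87 (limma adjusted p = 0.00447 and 0.000681). Elavl3 (HuC) was lower with Smo2 by 0.65 to 0.68 in its 3 probe sets, and the brightest, 1435871_at, read 11.34, 11.34 and 11.24, against 11.97, 12.03 and 11.95 without it (limma adjusted p = 0.000638).

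Elavl2 (HuB) went the other way. 1421881_a_at read 12.16, 12.13 and 12.23 with Smo2, against 11.63, 11.67 and 11.67 without it. It was higher by 0.52 ± 0.04 with no overlap (SE, limma adjusted p = 0.000814). 1421883_at was higher by 0.32 (limma adjusted p = 0.00272) and 1421882_a_at by 0.22 (limma adjusted p = 0.0192, not past it in 3 of 6 fits with 1 array left out, up to 0.0647), while 1454454_at at 0.56 (limma adjusted p = 0.0861) and the dim 1433052_at at 0.90 (limma adjusted p = 0.177) did not pass, though their groups did not overlap. The call of 1421882_a_at also ended with the replicate block (limma adjusted p = 0.0718). Of the cultures without Smo2, leaving out replicate 2 let 1454454_at pass (adjusted p = 0.00908) and leaving out replicate 3 let 1433052_at pass (adjusted p = 0.0499). In a single fit over all 22 arrays none of the Elavl2 probe sets passed (adjusted p 0.0825 to 0.28 for those named as called).

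In the Chd7 comparison the bright Elavl2 probe sets read higher in mutant than in control neurons by 0.25 to 0.38, with overlapping groups (limma adjusted p 0.424 to 0.479). 1421881_a_at read 11.21, 11.00, 11.66 and 11.51 in mutant and 10.75, 10.73, 11.24 and 11.21 in control neurons, and within each set of replicates all mutant samples were above the control samples. With the set as a block 3 of them passed (adjusted p 0.0168 to 0.0254), and with the replicate number as a block none did. Elavl4 1452894_at read 12.75, 12.71, 12.78 and 12.78 in mutant neurons, against 12.97, 12.88, 12.89 and 13.02 in control neurons. These groups did not overlap, and the small difference of -0.18 ± 0.04 did not pass (SE, limma adjusted p = 0.0741), though it did with a floor of 32 (adjusted p = 0.049) or a trended prior (0.0421). Neither the replicate number nor the replicate set as a block let it pass (limma adjusted p = 0.135 and 0.0551). The other Elavl4 probe sets differed by -0.12 in 1450258_a_at, without overlap, and -0.09 in 1428741_at, with it (limma adjusted p = 0.203 and 0.646). Elavl3 differed by -0.20 to -0.15 in the mutant and 0.07 to 0.15 under ICRF-193, and Elavl4 by 0.00 to 0.07 under ICRF-193, all with overlapping groups. The dim Elavl2 1433052_at read 4.89 ± 0.73 with ICRF-193 and 5.92 ± 0.09 with DMSO (SD, n = 4 each), without overlap, and did not pass (difference -1.02, limma adjusted p = 0.282).

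**Figure D4:**
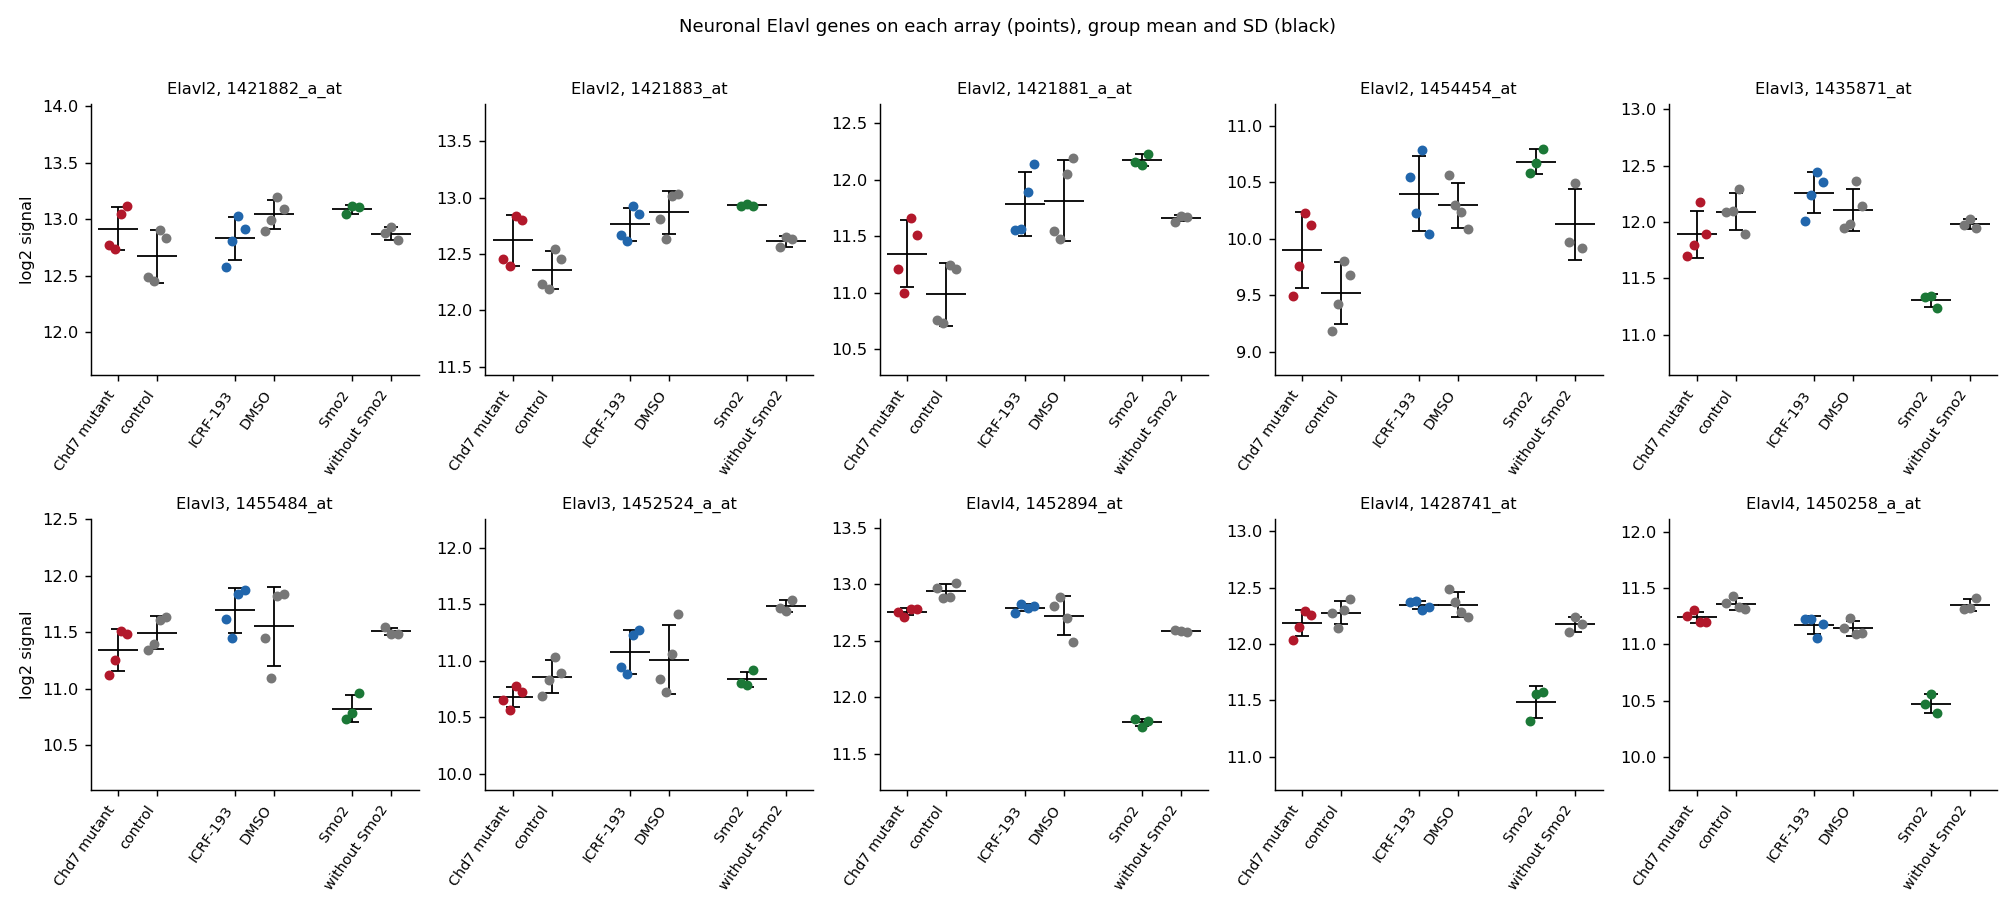
Log2 signal of the 10 bright probe sets of Elavl2, Elavl3 and Elavl4 on each array (points) of the 6 groups, with the group mean and SD in black. Each axis has its own range and does not start at 0. With Smo2 the Elavl3 and Elavl4 arrays lay below those without it and the Elavl2 arrays above them.

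The study asked whether long genes, those over 100 kb, depend on Chd7 and topoisomerase II, and the members span a wide range of lengths. Rbfox1 (1528 kb on chromosome 16), Rbfox3 (421.8 kb, chromosome 11), Rbfox2 (229.4 kb, chromosome 15), Elavl2 (188.6 kb) and Elavl4 (148.2 kb, both on chromosome 4) and Nova1 (121.6 kb, chromosome 12) are over 100 kb in GRCm38.p6, while Ptbp2 (65.91 kb, chromosome 3), Nova2 (39.43 kb, chromosome 7), Elavl3 (37.14 kb, chromosome 9) and Ptbp1 (10 kb, chromosome 10) are not. The median gene on the array spans 20.3 kb. By their brightest probe set, 2 of the 6 long members were lower in the mutant and 3 of 6 under ICRF-193, and 0 of the 4 others in either. Among bright genes over 100 kb 6.42% were called lower in the mutant and 11.4% under ICRF-193, against 1.65% and 0.666% of those up to 100 kb. With Smo2, 5 of the 6 long members were lower and 1, Elavl2, was higher, while 3 of the 4 others were lower and 1, Ptbp1, was higher, where 49.7% of bright long genes were called lower and 17.4% higher, and 30.3% and 27.6% of the others. Rbfox2, Elavl2 and Elavl4 are longer than Nova1 and were called in neither the mutant nor under ICRF-193. The call of Nova1 under ICRF-193 did not hold when any 1 array was left out. The part of length in the values of the members was not tested.

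**Figure D5:**
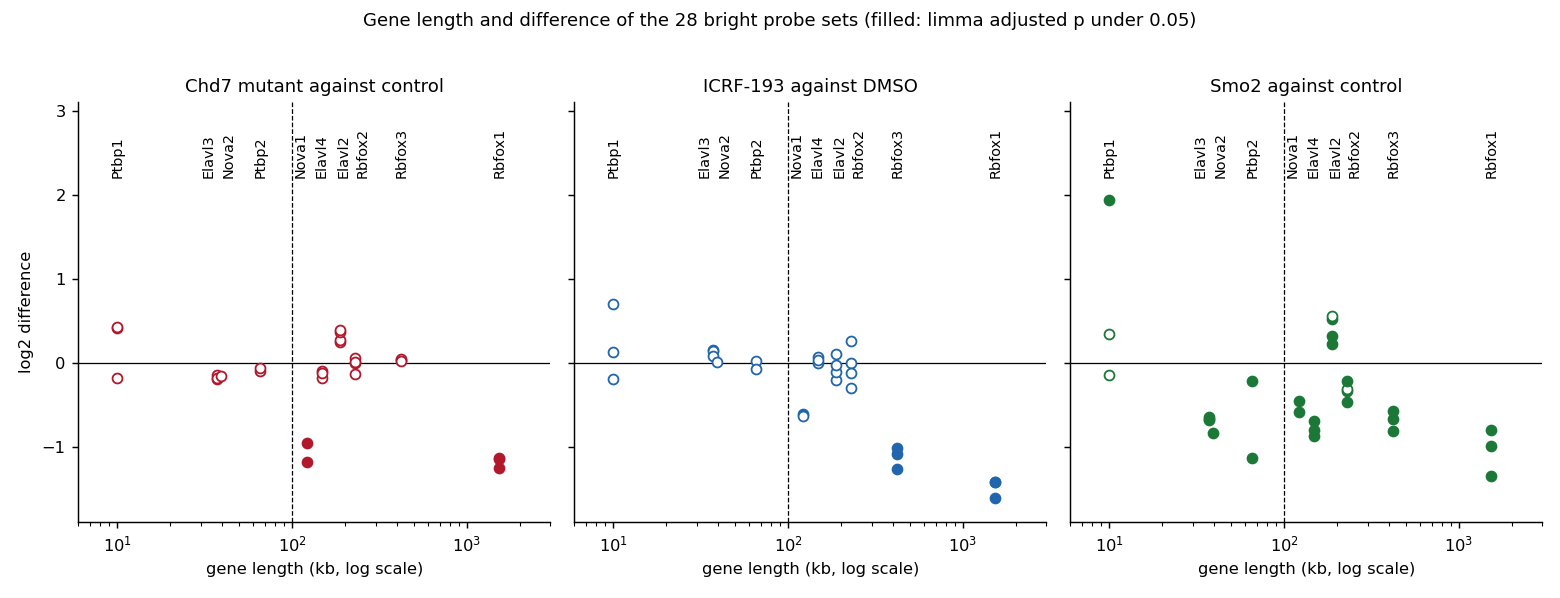
Log2 difference of the 28 bright probe sets against the length of their gene (kb, log axis) in the 3 comparisons, with filled points past limma at an adjusted p under 0.05. The dashed line marks 100 kb and gene names stand above their columns. In the first 2 panels the filled points belong to Rbfox1, Rbfox3 and Nova1, all right of the line, and in the Smo2 panel they lie on both sides.

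The Smo2 comparison set the members beside large changes in the cycling state of the cultures. The 6 measured markers of dividing progenitors were all higher with Smo2, cyclin D1 (Ccnd1) by 5.73 and the hedgehog target Gli1 by 4.27 on the log2 scale, and their summed linear signal was 39800 to 41450 with Smo2, against 5893 to 6135 without it. The granule lineage markers summed to 60950 to 66430 with Smo2 and 91380 to 94930 without it, with 6 of 8 lower and 1 higher. Other marker sums also separated without overlap. Those of GABAergic interneurons (3 of 3 called lower) were 1261 to 1453 with Smo2 and 3602 to 3671 without it, and those of astrocytes (5 of 6 lower, 1 higher) 2041 to 2375 with Smo2 and 3422 to 3941 without it. Those of microglia (4 of 5 lower) were 413.8 to 645 with Smo2 and 930.1 to 1207 without it, and those of Purkinje cells (2 of 3 lower) 152.9 to 171.2 with Smo2 and 213.2 to 300.6 without it. Those of the oligodendrocyte lineage (2 of 5 lower, 2 higher) were 7750 to 7918 with Smo2 and 8841 to 9415 without it, and those of muscle, the 1 list of these that was higher (2 of 5), 695.1 to 788.2 with Smo2 and 204 to 251.6 without it. With the replicate block, 5 granule lineage, 4 astrocyte, 3 microglia, 1 Purkinje cell and 1 oligodendrocyte lineage marker stayed called lower with Smo2. The part of these changes in cell state and makeup in the values of the members was not tested. In the Chd7 comparison the dividing markers summed to 4931 to 8923 in mutant and 3634 to 5134 in control neurons, and under ICRF-193 to 7988 to 13360, against 5543 to 9135 with DMSO, with overlap in both. All 6 were higher on average in the mutant (median 0.63), and Ccnd1 was called (9.01 in mutant and 7.96 in control neurons on the log2 scale, limma adjusted p = 0.00692). With the replicate block Ccnd1 was not (adjusted p = 0.0635), while Top2a (0.0394) and Cdk1 (0.0484) were called higher in the mutant and Mki67 (0.0367) and Mycn (0.0261) under ICRF-193.

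Of 25 measured genes of other regulated splicing factors, each taken by its brightest probe set, 2 were lower and 0 higher in the mutant, Khdrbs2 (Slm1) by 0.52 and Celf5 by 0.26, where 1.51% of all genes were lower and 2.05% higher, and neither passed with the replicate block. Under ICRF-193 3 were lower, Msi2, the RNA-binding protein Musashi-2 (-1.16), Celf2 (-1.12) and Celf4 (-0.63), and 1, Rbm24, was higher (0.68, not past the test with the replicate block), where 1.41% of all genes were lower and 1.12% higher. With Smo2 13 were lower and 7 higher, led by Mbnl3, a muscleblind protein (2.16), Celf5 (-1.61), Khdrbs3 (1.56) and Mbnl2 (-1.54), where 20.5% of all genes were lower and 17.2% higher. With the replicate block 8 were lower and 7 higher with Smo2. The medians of the list were -0.16, -0.03 and -0.28, against 0.00, 0.00 and -0.03 over all genes.

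The general splicing machinery gave 1 call in the mutant and none under ICRF-193, where 3.56% and 2.53% of all genes were called. In lists of this size such counts lie near the share over all genes. Of 30 measured SR and hnRNP genes, whose products bind exons and introns broadly, 0 were lower and 1 was higher in the mutant (Hnrnpa1, by 0.21, not past the test with the replicate block, adjusted p = 0.137), and 0 were called under ICRF-193. Of 26 measured genes of the core spliceosome none was called in either comparison. With Smo2, 17.2% of all genes were called higher and 20.5% lower. Of the 30 SR and hnRNP genes 17 were higher and 1 lower with Smo2 (median 0.32), among them Hnrnpf (0.86), Hnrnpu (0.82), Srsf9 (0.81) and Hnrnpm (0.73). Of the 26 core genes 22 were higher and 0 lower with Smo2 (median 0.59), among them the small ribonucleoprotein components Snrpf (1.43) and Snrpa1 (1.24) and the tri-snRNP proteins Eftud2 (1.29) and Prpf31 (1.21). With the replicate block 15 SR and hnRNP genes and 20 core genes were higher with Smo2, and 0 of either list lower. Ptbp1 1424874_a_at shared its direction with most genes of these lists in Smo2 cultures, while 8 of the other 9 members had their brightest probe set called lower.

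The genes whose level followed each member most closely were sought over the 22 arrays by Pearson's r, as a description, since the arrays of a group share their condition. For Rbfox1 these were Plcl1 (0.962) and Galntl6 (0.952), for Rbfox2 Rnf24 (0.952) and Ttbk2 (0.946), and for Rbfox3 Apeh (0.892) and Clybl (0.891). For Nova1 they were Skap2 (0.929) and Gpm6b (0.918), and for Nova2 Camta1 (0.982) and Akap9 (0.978). Elavl4 was followed by Lonrf2 (0.977) and Nol4l (0.976), Elavl3 by Plxnc1 (0.923) and Ulk2 (0.918), and Elavl2 less closely by Zfp326 (0.808) and Vgll4 (0.792). Ptbp1 was followed by Hirip3 (0.974) and Nsmf (0.964) and Ptbp2 by Zcchc14 (0.913) and Nfkbie (0.911).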

How the data were processed

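RNA of 22 samples was hybridised to Affymetrix mouse arrays. The authors deposited intensities on a linear scale for 45101 probe sets, and no source used here names the software or normalization. Once 2% of probe sets at either end were trimmed, each array averaged 500, as arrays scaled to a common target do. The 10 members, the gene lists and the tests were chosen with earlier results of these data known.

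Intensities were floored at 16, taken to log2 (medians 6.33 to 6.81) and quantile normalized over all arrays. Of the probe sets 34958 carry 1 gene symbol, 932 several and 9211 none, and those with 1 were named. Limma 3.58.1 (R 4.3.3) was run per comparison over all 45101 probe sets, two-sided, with Benjamini-Hochberg adjustment and calls at an adjusted p under 0.05. The difference between the Chd7 and ICRF-193 responses was fitted over their 16 arrays. All probe sets of the members are named, and of each other list (each gene by its brightest probe set) up to 4 called genes with the largest difference. Intensities give no counts, and the number of arrays limits the precision. No 2 of the arrays were identical.

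The groups share replicate numbers. Same-numbered arrays deviated together from their group means, with correlations of 0.305 to 0.348 (Chd7) and 0.282 to 0.411 (ICRF-193). The same-numbered array was the best match for 1 of 4 mutant arrays and 3 of 4 ICRF-193 arrays. The main fits used no block, and a replicate block is given beside the member results it changes. Arrays of another number in the same set (replicates 1 and 2, or 3 and 4) correlated as well, by 0.272 to 0.358 and 0.316 to 0.343, and arrays of different sets by -0.367 to -0.285 and -0.416 to -0.24. In the Smo2 comparison same-numbered arrays correlated by 0.0189 to 0.0359. Gene lengths and promoters are from RefSeq on GRCm38.p6. The fits were tested on simulated data. Alternatives changed the normalization, filter, floor, variance prior, arrays fitted, probe sets per gene, test and pairing, and left out each array in turn. Plots were made in matplotlib 3.10.9, Python 3.11.15.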

Additional observations from a re-analysis of the deposited data

Results flagged for a closer look

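In 8 of 124 groups of 4 arrays (6.45%, where chance alone flags about 1 group in 20) 1 array lay far from the other 3 by Dixon's test at 95%. In the Chd7 mutant group these were Rbfox1 1447735_x_at in replicate 1 (4.81, against 5.63 to 5.76 on the others), Rbfox2 1434938_at in replicate 4 (8.75, against 8.88 to 8.90), Ptbp1 1450443_at in replicate 2 (6.83, against 6.36 to 6.42) and Ptbp2 1423471_at in replicate 2 (10.09, against 10.40 to 10.45). Without mutant replicate 1 the dim Rbfox1 probe set passed (difference -0.66, limma adjusted p = 0.049). In the ICRF-193 group they were Rbfox3 1427286_at in replicate 4 (8.81, against 8.49 to 8.54) and the dim Nova2 1439099_at in replicate 2 (4.99, with the other 3 at the floor of 4). In the DMSO group they were Rbfox1 1455358_at in replicate 3 (10.80, against 10.94 to 10.96) and Rbfox2 1434938_at in replicate 4 (9.57, against 9.07 to 9.15). The calls of Rbfox1 1455358_at and Rbfox3 1427286_at under ICRF-193 held in all 8 fits that left out 1 array, with adjusted p-values up to 0.00248 and 0.00913.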

How the results depend on the processing

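The choice of block bore most on the Chd7 comparison. With the replicate number as a block, 2 member probe sets were lower in the mutant in place of 5, and 405 probe sets in all were called in place of 1246. With it ICRF-193 kept its count of 7 member probe sets lower, with 514 called in all in place of 877. Smo2 had 18 lower and 3 higher, and 5 member probe sets passed the difference of responses in place of 2. With the replicate set as a block, 3 member probe sets, all of Elavl2, were higher in the mutant and 2856 probe sets were called, and 1507 under ICRF-193. With set means as samples (2 a group) limma called 0 member probe sets and 0 probe sets in all in both, a design with few degrees of freedom that says nothing on stability. With median centring 785, 422 and 415 probe sets were called in the mutant, under ICRF-193 and in the difference of responses. It moved the median of all probe sets with Smo2 to 0.10, from -0.01 after quantile normalization and -0.08 with no further normalization, and the share of higher calls to 57.8% (7561 higher, 5530 lower) from 46.4%. Among member probe sets called in the main fits, the only one reversed was Ptbp2 1423470_at with Smo2 under median centring (0.062, adjusted p = 0.502). The filter on dim probe sets and the trended prior each added 1 member probe set higher in the mutant. A single fit over all arrays called 1986 in the mutant, 1822 under ICRF-193, and 1 member probe set higher with Smo2. With 1 probe set a gene, 2 members were lower in the mutant (815 genes called), 3 under ICRF-193 (541), and 8 lower and 2 higher with Smo2 (7250). The methods' t-test at an unadjusted p under 0.05 and over 1.5-fold called 2210, 2044 and 9665 probe sets, with 1 member probe set higher with Smo2, and after Benjamini-Hochberg 946, 710 and 11896. With 1 array left out, member probe sets lower ranged from 4 to 6 and higher from 0 to 1 in the mutant (537 to 734 probe sets in all), 6 lower under ICRF-193 (598 to 683 in all), 18 to 20 lower and 3 to 5 higher with Smo2 (11279 to 11820 in all), and 2 to 3 in the difference of responses (632 to 801 in all). Apart from arrays left out, of the single values of member probe sets called in the main fits 327 kept their call, 43 lost it and 1 reversed. Probe sets not called in the main fits are not in this count.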
